A study of Arabidopsis thaliana with 5 samples.

Results

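The evening-phase genes of the circadian clock were followed in leaf epidermal cells of Arabidopsis thaliana. They are 10 genes chosen by gene identifier for their known place in the clock: TOC1 (AT5G61380), PRR3 (AT5G60100), PRR5 (AT5G24470), ELF3 (AT2G25930), ELF4 (AT2G40080), LUX (AT3G46640), BOA (AT5G59570), GI (AT1G22770), FKF1 (AT1G68050) and ZTL (AT5G57360). All 10 were among the 24200 genes of the deposited table. The study compared 2 libraries of hdl, plants with the hdl-1 allele of the gene HDL, with 3 libraries of wild type (WT). Seedlings of both genotypes were grown on half-strength MS medium in long days, carried a red membrane reporter (RCI2A-mCherry) driven by the epidermal AtML1 promoter, and were taken 9 days post germination. Protoplasts positive for the reporter were sorted, and all 5 libraries carry batch number 1. The labels give no hour of harvest and leave it unstated if the replicates were separate plantings, so the spread between libraries may be technical. The HDL transcript was not analysed here.

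The list of members was settled when differences between hdl and WT in these data were already known. The members' values in the 2 genotypes are therefore given as a description. The other gene lists were also chosen with earlier results of these data known. Their counts and adjusted p-values are therefore no independent test either. No p-value of a member is printed, and counts of members past a threshold stand only beside the share of all genes past it.

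The plant clock is a set of transcription factors that repress each other in turn through the day. CCA1 and LHY, which peak near dawn, repress the evening genes, and the evening genes repress the morning genes in return. ELF3, ELF4 and LUX form the evening complex, a night repressor, while the F-box proteins ZTL and FKF1, with GI, set protein turnover of clock and flowering regulators. In the wild-type clock the transcripts of most of these genes cycle, that of ZTL little, so levels at a single sampling do not give phase or amplitude.

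The evening element, spelled AAAATATCT, is a sequence through which CCA1 and LHY are known to bind evening genes. It was searched on both strands from 250 bases before to 50 bases after the annotated start of each gene. It was found in the windows of 5 of the 10 members, TOC1, PRR5, LUX, BOA and FKF1, against 2.82% of 27443 protein-coding promoters. The 250 bases before the start are shown for these 5 members, since they share this element, and for ZTL, whose transcript differed in the opposite direction. The ZTL window held none of the motifs searched, and neither did those of GI and PRR3. The 5 members with the element were lower in hdl, and so were GI, ELF3 and ELF4, whose windows held no exact match to it. The part of the element in the differences was not tested. Sequences are from the RefSeq genome TAIR10.1, 5′ to 3′ along the gene's strand. The windows are chr5:24674713-24674962 (plus strand) for TOC1, chr5:8358547-8358796 (minus strand) for PRR5, chr3:17182792-17183041 (plus strand) for LUX, chr5:24003638-24003887 (plus strand) for BOA, chr1:25508389-25508638 (plus strand) for FKF1 and chr5:23241070-23241319 (plus strand) for ZTL. Capitals mark every match to the evening element, the CCA1-binding site AAAAATCT, the G-box CACGTG and the LUX motif GATTCG or GATACG, on either strand.
TOC1: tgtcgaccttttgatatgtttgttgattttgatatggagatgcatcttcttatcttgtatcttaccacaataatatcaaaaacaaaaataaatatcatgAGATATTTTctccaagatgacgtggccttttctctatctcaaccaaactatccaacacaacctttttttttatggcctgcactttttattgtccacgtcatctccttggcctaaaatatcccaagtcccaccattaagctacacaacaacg
PRR5: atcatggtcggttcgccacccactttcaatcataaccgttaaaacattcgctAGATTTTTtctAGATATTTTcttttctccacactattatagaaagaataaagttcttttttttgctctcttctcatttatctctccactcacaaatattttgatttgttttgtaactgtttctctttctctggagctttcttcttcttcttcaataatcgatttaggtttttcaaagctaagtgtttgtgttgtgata
LUX: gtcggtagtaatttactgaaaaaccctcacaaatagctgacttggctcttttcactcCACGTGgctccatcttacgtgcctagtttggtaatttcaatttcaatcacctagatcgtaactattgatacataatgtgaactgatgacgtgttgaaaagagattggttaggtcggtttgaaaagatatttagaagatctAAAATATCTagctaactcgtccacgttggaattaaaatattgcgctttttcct
BOA: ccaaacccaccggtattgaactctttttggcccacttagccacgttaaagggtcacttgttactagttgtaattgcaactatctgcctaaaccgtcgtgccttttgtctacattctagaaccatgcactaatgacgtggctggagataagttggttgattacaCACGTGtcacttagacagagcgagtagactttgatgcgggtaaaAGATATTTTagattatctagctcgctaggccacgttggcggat
FKF1: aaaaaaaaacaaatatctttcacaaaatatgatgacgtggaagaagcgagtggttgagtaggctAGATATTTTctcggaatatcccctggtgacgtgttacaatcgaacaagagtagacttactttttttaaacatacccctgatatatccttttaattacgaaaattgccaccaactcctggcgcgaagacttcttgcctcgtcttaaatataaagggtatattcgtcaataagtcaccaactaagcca
ZTL: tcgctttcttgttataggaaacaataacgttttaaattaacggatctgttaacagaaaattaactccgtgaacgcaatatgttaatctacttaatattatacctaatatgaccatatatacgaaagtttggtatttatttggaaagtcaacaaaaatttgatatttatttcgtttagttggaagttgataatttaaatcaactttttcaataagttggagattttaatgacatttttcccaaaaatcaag

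The evening element began at base -151 from the start in TOC1, -187 in PRR5, -53 in LUX, -43 in BOA and -186 in FKF1, with another match at base 1 in FKF1. Among 16 morning clock genes, 2 held it, PRR9 and RVE7. The G-box was found in LUX and BOA, so in 2 of 10 members, against 7.68% of all promoters and 12 of the 16 morning genes. The LUX motif was found in ELF3 and ELF4 (2 of 10 members, against 14.5% of all promoters), and the CCA1-binding site in PRR5 alone among the members (7.88% of all promoters). These matches describe letters in the windows and do not show binding.

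The libraries held 15418154 to 22838239 gene reads. Their normalized counts did not sum to equal totals, with means of 24548400 ± 227670 (SD, n = 2) in hdl and 19625500 ± 527832 (SD, n = 3) in WT. The marker sums below are on this scale. WT replicate 2 stood apart from the other WT libraries, at r = 0.91 and 0.92 with them across genes, which are not independent replicates, against r = 0.97 between WT replicates 1 and 3. The 2 hdl libraries were at r = 0.92 with each other, and hdl replicate 2 was as close to WT replicates 1 and 3, at r = 0.92 with each. A group of 239 genes was nearly empty in hdl replicate 1 (under 5% of the lowest other library, out of 15974 genes whose other libraries all reached 40 normalized counts). Of this group 81.1% overlap an opposite-strand gene, a share that was 29.9% among the remaining genes. FKF1 is the only member among the 239. ATML1, whose promoter drove the sorting reporter, was at 3562 and 3522 normalized counts in hdl replicates 1 and 2. In WT replicates 1, 2 and 3 it was at 2549, 4183 and 2582. Since cells were sorted by this promoter, these values are no independent check of epidermal identity. Of the markers of 5 cell types, none was at 0 in any library. The summed level was 67487 to 75693 normalized counts in hdl and 24282 to 27866 in WT for 10 epidermis markers. For 8 mesophyll markers it was 1078870 to 1137980 in hdl and 547457 to 717102 in WT. For 9 phloem markers it was 20038 to 22471 in hdl and 32588 to 49912 in WT, for 9 xylem markers 17685 to 18053 in hdl and 29190 to 53889.5 in WT, and for 8 guard cell markers 853 to 1118 in hdl and 1013 to 1304 in WT. The single markers were above WT in every hdl library for 6, 7, 2, 0 and 2 genes and below for 0, 0, 4, 7 and 4 genes of the epidermis, mesophyll, phloem, xylem and guard cell lists, in that order. Of all 20391 genes tested, 26.7% were above in this way and 26.9% below. The largest part of the phloem sum was SEOR1, at 10343 and 8694 in hdl replicates 1 and 2. It was at 31000.5, 23098 and 32766 in WT replicates 1, 2 and 3. APL, CALS7, FTIP1 and PP2-A1 were also lower in hdl, with log2 differences of -1.35, -1.26, -0.62 and -0.26. SUC2, SWEET11, SWEET12 and SULTR2;2 went the other way, at 0.39, 0.46, 0.06 and 0.51. The part of these markers in the clock gene differences was not tested. In bulk samples, fewer cells of a type and less RNA per cell cannot be told apart.

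In hdl, 8 of the 9 members that passed the filter on low values were lower than in WT in every library, and ZTL was higher in every library. A gene passed if 2 or more libraries reached 10 normalized counts. PRR3 lay below it. Over all 20391 genes tested, 26.9% had every hdl library below every WT library, and 26.7% had every hdl library above. The median log2 difference (hdl minus WT, of normalized counts + 1) was -1.42 over the 9 members and -0.05 over all genes tested. In the limma fit across all genes, called at a Benjamini-Hochberg adjusted p under 0.05, 3 members were lower (ELF3, LUX and PRR5), where 4.5% of all genes were, and 1 was higher (ZTL), where 8.21% of all genes were. Since these differences were known when the list was made, nothing is read from these counts. With libraries scaled to equal totals, the genes higher and lower over all were 993 and 2554 in place of 1674 and 917 (4.87% and 12.5% of genes tested), and the members called were 0 higher and 6 lower.

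**Figure D1:**
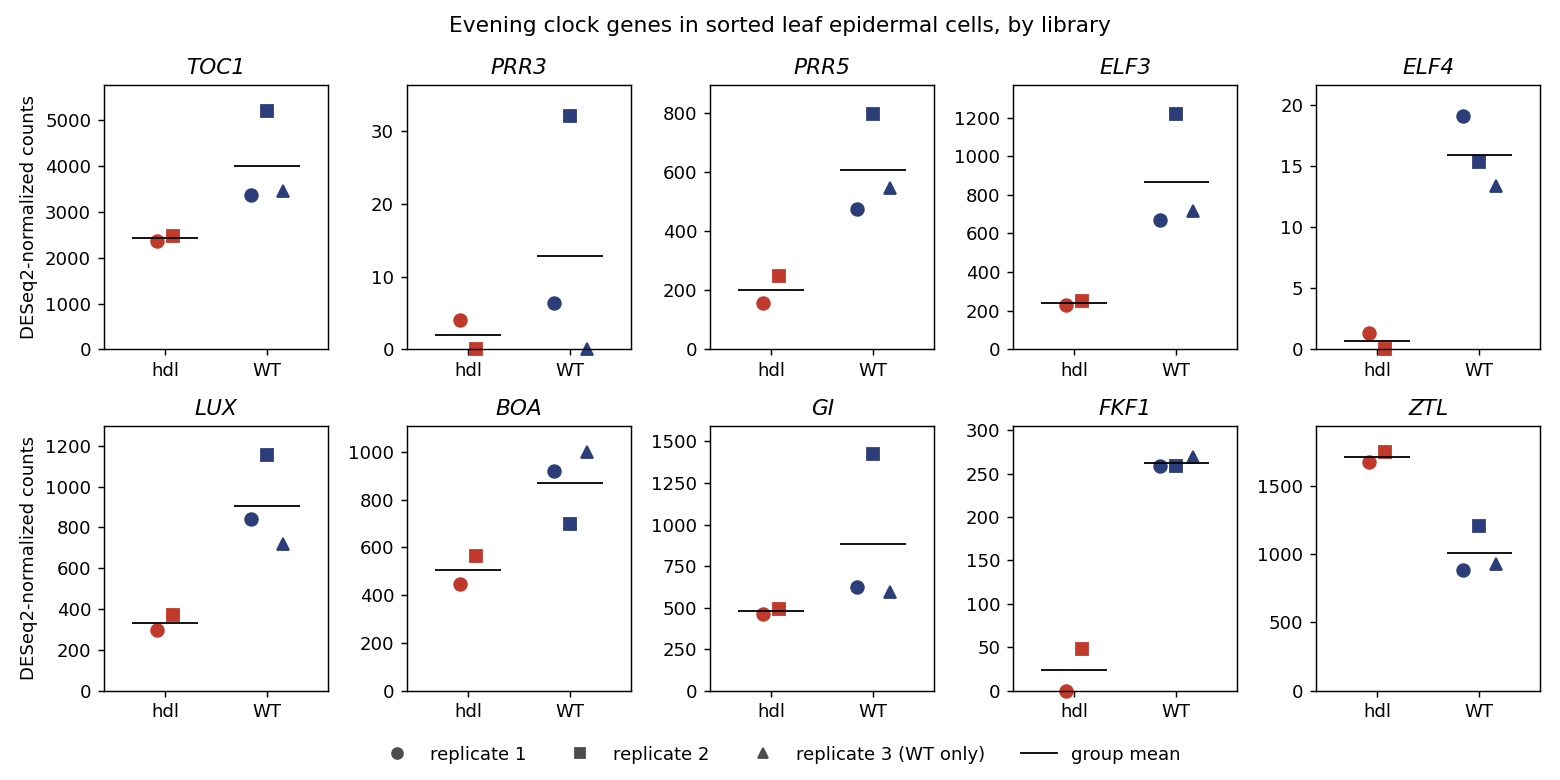
Normalized counts (vertical axes, each from 0) of the 10 evening clock genes in 2 hdl and 3 WT libraries; symbols give the replicate number and lines the group mean. Both hdl libraries sit below all WT libraries for 8 genes and above them for ZTL, while PRR3 overlaps.

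The pseudo-response regulators repress clock genes in sequence through the day. TOC1, the evening regulator that represses CCA1 and LHY (chromosome 5, 24674963 to 24678550, plus strand), had 2368 and 2476 normalized counts in hdl replicates 1 and 2, against 3359, 5201 and 3447 in WT replicates 1, 2 and 3. Its groups did not overlap, and WT replicate 2 was the highest library. The mean was 2422 ± 76.4 (SD, n = 2) for hdl and 4002 ± 1039 (SD, n = 3) for WT, a log2 difference of -0.69 ± 0.22 (SE).

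PRR5, which represses morning genes from the afternoon on (chromosome 5, 8356204 to 8358546, minus strand), had 156 and 248 normalized counts in hdl replicates 1 and 2, against 475, 798 and 549 in WT replicates 1, 2 and 3. The highest hdl library lay below the lowest WT library, and the hdl mean was 0.333 times the WT mean (log2 difference -1.58 ± 0.31, SE). PRR3, whose protein shields TOC1 protein from ZTL (chromosome 5, 24197971 to 24201415, minus strand), was close to the limit of detection. It had 4.05 and 0 normalized counts in hdl replicates 1 and 2, against 6.36, 32.03 and 0 in WT replicates 1, 2 and 3. Both groups held a library at 0 and overlapped. In recovered reads these were 3 in all in hdl, all from replicate 1. In WT they were 31 in all, of which 25 came from WT replicate 2. A recovered read of hdl replicate 1 may stand for more than 1 read, which the interval below leaves out. The pooled ratio of hdl to WT was 0.182 with an exact 95% interval of 0.0357 to 0.585 that covers counting error only, so it says nothing of the spread between libraries.

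Of the evening complex, ELF3 and LUX were well detected and ELF4 barely. ELF3, the scaffold of the complex (chromosome 2, 11058944 to 11063324, plus strand), had 232 and 248 normalized counts in hdl replicates 1 and 2, against 670, 1218 and 715 in WT replicates 1, 2 and 3. The hdl libraries lay close together and far below all WT libraries. The mean was 240 ± 11.5 (SD, n = 2) for hdl and 868 ± 304 (SD, n = 3) for WT, a log2 difference of -1.80 ± 0.29 (SE).

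LUX, the DNA-binding component (chromosome 3, 17183042 to 17186959, plus strand), had 295 and 372 normalized counts in hdl replicates 1 and 2, against 843, 1157 and 721 in WT replicates 1, 2 and 3. The groups were separate, and the hdl mean was 0.368 times the WT mean (log2 difference -1.42 ± 0.24, SE). BOA, the closest relative of LUX in the genome (chromosome 5, 24003888 to 24007844, plus strand), had 447 and 562 normalized counts in hdl replicates 1 and 2, against 918, 696 and 997 in WT replicates 1, 2 and 3. Here WT replicate 2 was the lowest WT library, unlike for LUX, and the log2 difference was -0.78 ± 0.21 (SE).

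ELF4, a small protein that acts through ELF3 (chromosome 2, 16734294 to 16734953, minus strand), had 1.35 and 0 normalized counts in hdl replicates 1 and 2, against 19.1, 15.4 and 13.3 in WT replicates 1, 2 and 3. This was 1 recovered read in hdl, from replicate 1, and 46 in WT in all. A recovered read of hdl replicate 1 may stand for more than 1 read, which the interval below leaves out. The pooled ratio of hdl to WT was 0.041 with an exact 95% interval of 0.00102 to 0.24, for counting error only. The fitted log2 difference of -3.45 ± 1.05 (SE) depends on the pseudocount of 1 and was -1.88 with a pseudocount of 5.

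GI, FKF1 and ZTL link the clock to light and flowering. GI, a large protein that stabilises ZTL (chromosome 1, 8061751 to 8067790, plus strand), had 463 and 493 normalized counts in hdl replicates 1 and 2, against 626, 1426 and 591 in WT replicates 1, 2 and 3. The lowest WT library was close to the hdl libraries, and WT replicate 2 alone held more than 1000. The log2 difference was -0.76 ± 0.39 (SE), and without WT replicate 2 it was -0.35.

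FKF1, which with GI removes repressors of CO (chromosome 1, 25508639 to 25510907, plus strand), had 0 and 48.2 normalized counts in hdl replicates 1 and 2, against 259, 259 and 269 in WT replicates 1, 2 and 3. The WT libraries were nearly equal, and both hdl libraries were far below them but differed from each other. The fitted log2 difference of -5.23 ± 1.49 (SE) was -2.42 without hdl replicate 1 and -8.04 without hdl replicate 2. On recovered reads it was -3.42 in edgeR and -3.44 in DESeq2. It is among the genes nearly empty in hdl replicate 1, and it overlaps an opposite-strand gene, MAP70-1 (AT1G68060); the part of this in its difference was not tested.

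ZTL, which marks TOC1 and PRR5 proteins for breakdown (chromosome 5, 23241320 to 23244590, plus strand), had 1678 and 1753 normalized counts in hdl replicates 1 and 2, against 888, 1205 and 930 in WT replicates 1, 2 and 3. It was the only member higher in hdl, at a mean of 1716 ± 52.8 (SD, n = 2) for hdl and 1008 ± 173 (SD, n = 3) for WT, a log2 difference of 0.78 ± 0.18 (SE). With libraries scaled to equal totals this was 0.46, against a median of -0.37 over all genes on that scale.

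Of the 9 members above the filter, 4 overlap an annotated gene on the opposite strand, and the sources used here do not say whether reads were counted by strand, so their values are uncertain to that extent. The shared exon sequence made up 0.969% of the exons of FKF1, 17.8% of those of LUX and 45.9% of those of BOA. For ELF3 it was 0.873% with ALPHA-VPE and 0.764% with an antisense RNA. The neighbour of BOA, UGT76E1 (AT5G59580), had 12.1 and 168 normalized counts in hdl replicates 1 and 2, against 565, 287 and 465 in WT replicates 1, 2 and 3. The neighbour of LUX, AT3G46650, had 85.0 and 203 in hdl replicates 1 and 2, against 59.4, 164 and 59.2 in WT replicates 1, 2 and 3. The UGT76E1 values, like those of BOA, were lower in both hdl libraries than in any WT library, while AT3G46650 overlapped between the groups and LUX did not. PRR5, GI, TOC1, ELF4 and ZTL have no such neighbour.

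Ranked per length of exon, TOC1 was the highest member in both genotypes, at 843 to 882 normalized counts per kb in hdl and 1196 to 1852 in WT. ZTL came next in both, at 688 to 718 per kb in hdl and 364 to 494 in WT. PRR5, ELF3, BOA, LUX and GI followed in WT, with means of 362, 316, 238, 232 and 205 per kb, and from ZTL down to GI each range overlapped that of its neighbour. In hdl the same 5 genes lay between 75.4 and 154 per kb, clear of ZTL. Within each WT library ZTL was also above PRR5, at 364, 494 and 381 against 283, 476 and 327 per kb in WT replicates 1, 2 and 3. FKF1 was at 0 and 22.2 per kb in hdl replicates 1 and 2 and at 119 to 124 in WT, ELF4 at 0 to 2.18 in hdl and 21.6 to 30.8 in WT, and PRR3 had the lowest mean in both, at 0 to 1.44 in hdl and 0 to 11.4 in WT. In hdl the ranges of FKF1, ELF4 and PRR3 overlapped.

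**Figure D2:**
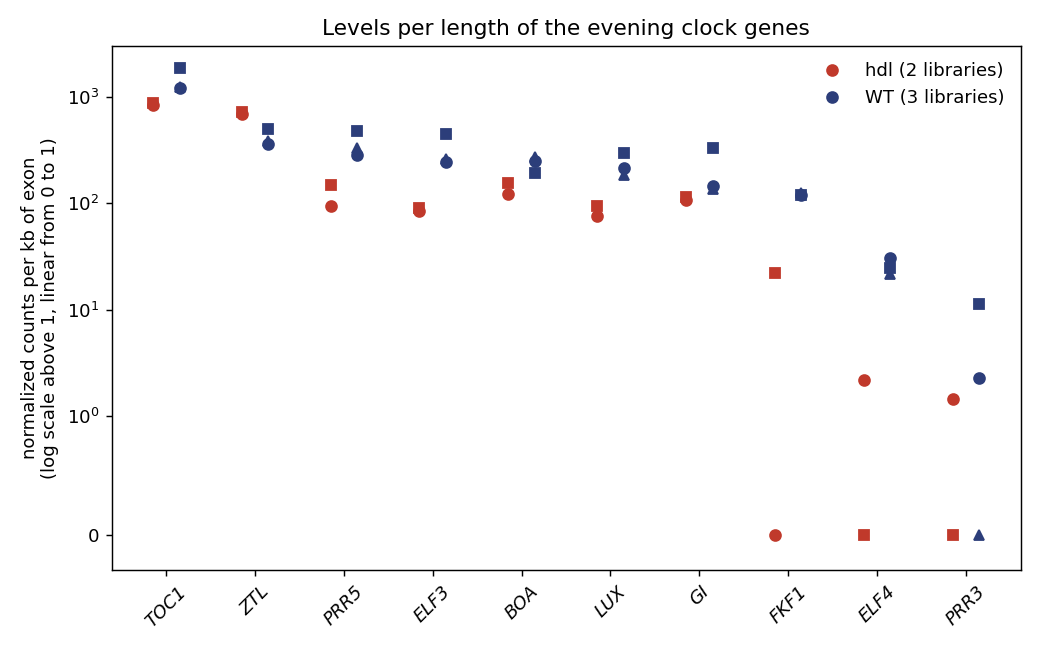
Normalized counts per kb of exon (vertical axis, logarithmic above 1) of the 10 evening genes, ordered by WT mean, with hdl libraries on the left of each pair and WT libraries on the right. TOC1 has the highest and PRR3 the lowest mean in both genotypes; ZTL is the only gene with hdl above WT in every library.

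The members did not vary alike among the WT libraries. WT replicate 2 was above both other WT libraries for 6 of the 9 members (TOC1, PRR5, ELF3, LUX, GI and ZTL) and below both for BOA and FKF1, where 40.7% of all genes tested were above and 43.5% below. On the log2 scale it exceeded the mean of WT replicates 1 and 3 by 1.23 for GI, 0.81 for ELF3, 0.64 for PRR5, 0.61 for TOC1, 0.57 for LUX and 0.41 for ZTL. ELF4 and FKF1 differed by -0.05 and -0.03. Without WT replicate 2, 5 members were called lower (ELF3, LUX, PRR5, BOA and TOC1, where 11.3% of all genes were) and ZTL remained called higher (17.5% of all genes). Without WT replicate 3 limma called 0 members (1.83% of all genes higher and 0.353% lower), and without hdl replicate 1 it called 0 members and 0% of all genes. Without WT replicate 1 only ELF3 was called, lower (3.92% of all genes higher and 0.922% lower). Without hdl replicate 2 only LUX, PRR5 and FKF1 were called, lower (2.44% of all genes higher and 5.33% lower). DESeq2 on reads recovered from the table called 6 members lower (10.6% of all genes) and ZTL higher (12.8% of all genes).

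The morning genes are the opposite arm of the clock. Their list was also made with earlier results of these data known. Its counts and adjusted p-values are therefore a description and no independent test. Of 16 in the list, all 16 passed the filter, 6 rose in hdl and 0 fell in limma (median log2 difference 0.68, against -0.05 for all genes). Over all genes, 8.21% were called higher and 4.5% lower. At an unadjusted p under 0.05, 10 morning genes were higher and 1 lower, where 16.6% and 15.4% of all genes were. edgeR called 6 and 0 (7.97% and 4.08% of all genes), and DESeq2 9 and 1 (12.8% and 10.6%). CCA1, a MYB factor that represses TOC1 (AT2G46830), had 4823 and 4856 normalized counts in hdl replicates 1 and 2, against 1500, 665 and 1430 in WT replicates 1, 2 and 3 (log2 difference 2.10 ± 0.36, SE; limma adjusted p = 0.0191). LNK1, a coactivator of evening genes such as PRR5 (AT5G64170), had 1925 and 1642 in hdl replicates 1 and 2, against 752, 712 and 802 in WT replicates 1, 2 and 3 (1.24 ± 0.15, SE; limma adjusted p = 0.00809). In both genes every hdl library was above every WT library, and for CCA1 the WT library farthest from hdl was replicate 2.

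On the log2 scale, LNK3 and LNK4, of the same family as LNK1, rose by 0.74 (limma adjusted p = 0.0238) and 0.83 (limma adjusted p = 0.034). RVE8, which with the LNK proteins activates evening genes, and RVE5 also passed, with log2 differences of 2.17 and 0.92 (limma adjusted p = 0.0391 and 0.0376). LHY, the partner of CCA1, chosen here after its values were seen, had 3798 and 3255 normalized counts in hdl replicates 1 and 2, against 1237, 370 and 1249 in WT replicates 1, 2 and 3, and did not pass (log2 difference 2.08 ± 0.54, SE; limma adjusted p = 0.0544). PRR7, also chosen after its values were seen, had 1252 and 1107 in hdl replicates 1 and 2, against 1342, 4567 and 1343 in WT replicates 1, 2 and 3 (limma adjusted p = 0.358), so that its spread came from WT replicate 2. LNK1, LNK3 and RVE5 overlap an opposite-strand gene. With libraries scaled to equal totals 3 morning genes were higher (LNK1, CCA1 and RVE8) and RVE2 lower (4.87% and 12.5% of all genes). Without WT replicate 2, 10 were higher and RVE2 lower (17.5% and 11.3% of all genes). Without WT replicate 3 only LNK1 was called, higher (1.83% of all genes higher and 0.353% lower). Without WT replicate 1, 3 were higher (3.92% of all genes).

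**Figure D3:**
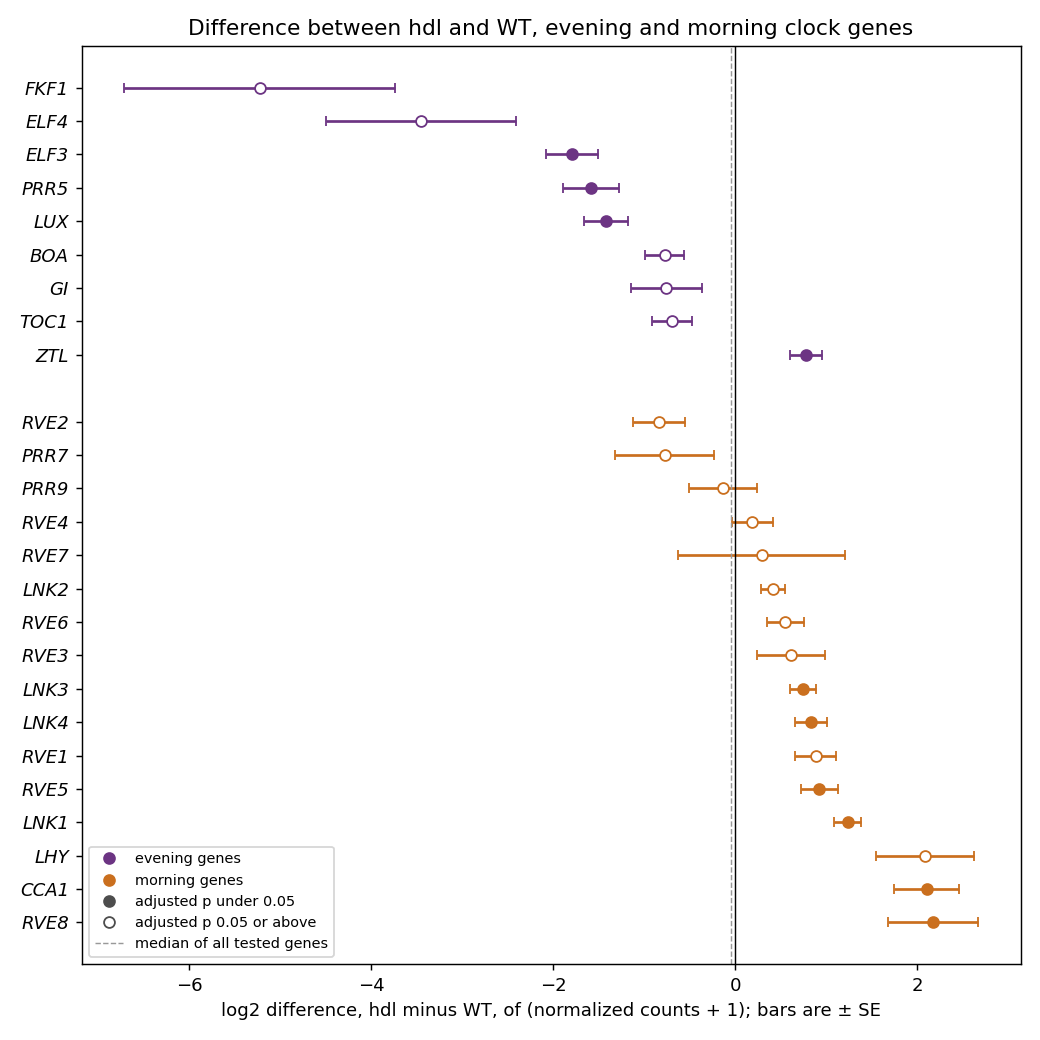
Log2 difference between hdl and WT (horizontal axis, of normalized counts + 1; bars are SE) for 9 evening genes and 16 morning genes; filled points have a limma adjusted p under 0.05. ZTL alone lies right of 0 among the evening genes, at 0.78, while CCA1, LHY and RVE8 lie above 2.

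The ratio of 2 transcripts within a library does not depend on how libraries were scaled. The log2 ratio of CCA1 to TOC1 was 1.03 and 0.97 in hdl replicates 1 and 2, against -1.16, -2.97 and -1.27 in WT replicates 1, 2 and 3. Read only between libraries, the ratio was higher by 2.80 on the log2 scale in hdl, and no hdl library came near a WT library. The log2 ratio of ZTL to ELF3 was 2.85 and 2.82 in hdl replicates 1 and 2, against 0.41, -0.02 and 0.38 in WT replicates 1, 2 and 3, a difference of 2.58. For ZTL to TOC1 it was -0.50 in each hdl library, against -1.92, -2.11 and -1.89 in WT replicates 1, 2 and 3. These pairs were chosen after their values were seen.

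**Figure D4:**
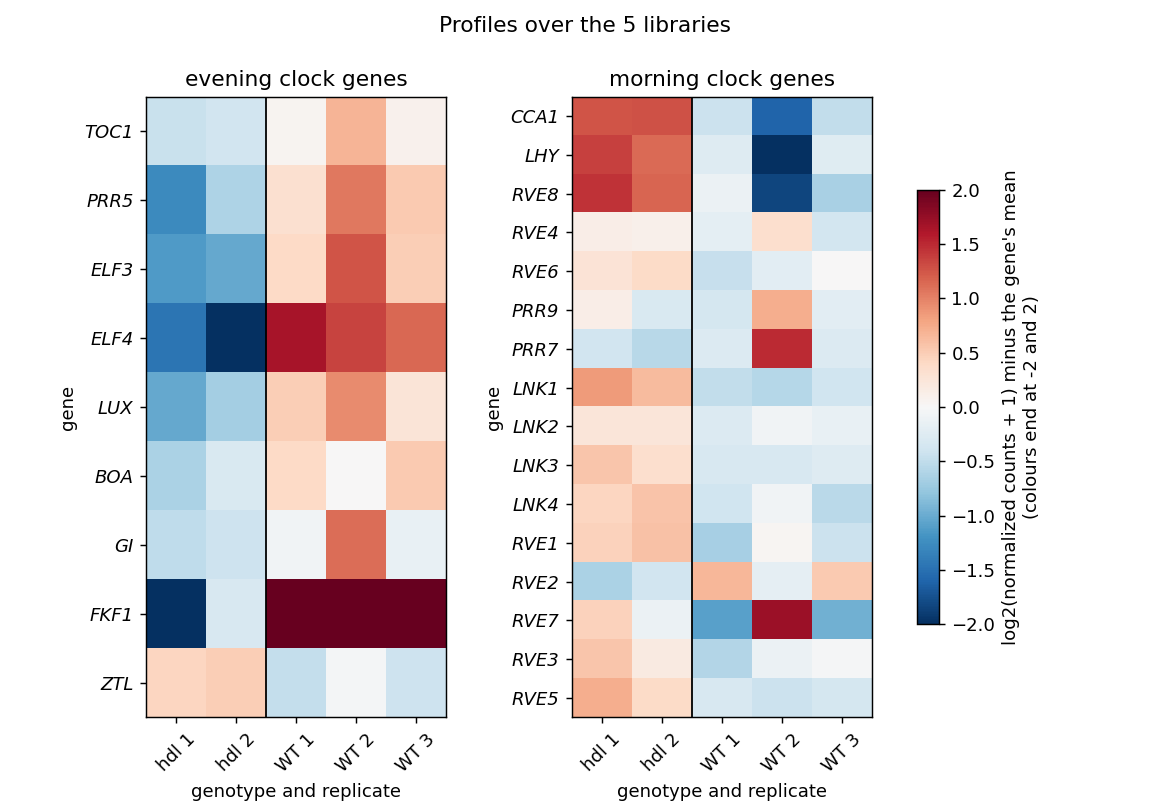
Each gene's log2(normalized counts + 1) minus its own mean over the 5 libraries (colour), for 9 evening genes on the left and 16 morning genes on the right, with hdl libraries left of the line. The evening genes other than ZTL are low in hdl, and WT replicate 2 has the highest GI and PRR7 and the lowest CCA1, LHY and RVE8.

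Genes whose proteins act with the evening genes or regulate them formed another list. Of 27 partners and regulators, 26 passed the filter, 2 rose in hdl and 0 fell in limma (median log2 difference -0.09), where 8.21% of all genes were called higher and 4.5% lower, so the count of partners that rose was near the background. At an unadjusted p under 0.05, 4 were higher and 2 lower, where 16.6% and 15.4% of all genes were. edgeR called 2 and 0 (7.97% and 4.08% of all genes), and DESeq2 3 and 1 (12.8% and 10.6%). LKP2, the third F-box protein of the ZTL family (AT2G18915), had 1736 and 1628 normalized counts in hdl replicates 1 and 2, against 1171, 870 and 924 in WT replicates 1, 2 and 3 (log2 difference 0.78 ± 0.17, SE; limma adjusted p = 0.0376). DET1, a repressor of light responses that acts with CCA1 and LHY (AT4G10180), had 839 and 867 in hdl replicates 1 and 2, against 509, 565 and 488 in WT replicates 1, 2 and 3 (0.71 ± 0.15, SE; limma adjusted p = 0.0341). Like ZTL, both were higher in every hdl library than in any WT library. LKP2 overlaps an opposite-strand gene. With libraries scaled to equal totals 0 partners were higher and 3 lower (COR28, SKIP and CUL1), against 4.87% and 12.5% of all genes. When WT replicate 2 was left out, 17.5% of all genes were called higher and 11.3% lower. Without WT replicate 2, 5 partners were higher and SKIP lower. Without WT replicate 1 only LKP2 was called, higher (3.92% of all genes higher and 0.922% lower). Without WT replicate 3 limma called 0 partners (1.83% of all genes higher and 0.353% lower).

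The core of the ZTL ubiquitin ligase, chosen here after its values were seen, did not pass: ASK1 had a log2 difference of 0.12 (limma adjusted p = 0.584), which was -0.21 with libraries scaled to equal totals, and CUL1 of -0.20 (limma adjusted p = 0.304). Among the relatives of ELF4, EFL1 lay below the filter, and EFL2, EFL3 and EFL4 had log2 differences of -0.35, 0.49 and -1.86 (limma adjusted p = 0.537, 0.734 and 0.183). COR28, a repressor of evening clock genes, had 21.6 and 35.8 normalized counts in hdl replicates 1 and 2, against 146, 114 and 69.2 in WT replicates 1, 2 and 3, and did not pass in limma (adjusted p = 0.0519). COR28 and the ELF4 relatives were also chosen after their values were seen.

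Genes downstream of the clock formed the last list. Of 17 outputs and targets, 15 passed the filter, 3 rose in hdl and 1 fell in limma (median log2 difference -0.07), where 8.21% of all genes were called higher and 4.5% lower. The catalase gene CAT2, which peaks in the morning (AT4G35090), had 104538 and 99290 normalized counts in hdl replicates 1 and 2, against 21743, 14177 and 17929 in WT replicates 1, 2 and 3 (log2 difference 2.53 ± 0.23, SE; limma adjusted p = 0.00473). COL1 and COL2, CONSTANS-like genes with dawn expression, rose on the log2 scale by 1.81 (limma adjusted p = 0.00535) and 1.62 (limma adjusted p = 0.0246). CO, the photoperiod regulator of flowering whose repressors FKF1 and GI remove (AT5G15840), fell to 37.8 and 70.4 in hdl replicates 1 and 2, against 264, 170 and 267 in WT replicates 1, 2 and 3 (log2 difference -2.13 ± 0.39, SE; limma adjusted p = 0.0219). All 4 overlap an opposite-strand gene. Without such genes in the fit 1 output was called, CDF1, higher, a CO repressor and target of FKF1 (10.1% of all genes left were called higher and 5.37% lower).

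PIF4 and PIF5, growth factors repressed by the evening complex, were chosen after their values were seen and did not pass. Their log2 differences were 0.85 and 0.87 (limma adjusted p = 0.12 and 0.0705). Every hdl library was above every WT library for both, as it was for 26.7% of all genes tested. PIF5 had 7609 and 6938 normalized counts in hdl replicates 1 and 2, against 3458, 5552 and 3243 in WT replicates 1, 2 and 3. CAT3, CCL and FT were likewise chosen after their values were seen. CAT3 and CCL were high in WT replicate 2 alone. CAT3, a catalase gene that peaks in the evening, had 13430 and 11703 in hdl replicates 1 and 2, against 10802, 38020 and 10427 in WT replicates 1, 2 and 3. CCL, an output gene, had 741 and 819 in hdl replicates 1 and 2, against 391, 6418 and 394 in WT replicates 1, 2 and 3. FT, the mobile flowering signal, lay below the filter, at 10.8 and 3.71 in hdl replicates 1 and 2, against 2.12, 1.28 and 1.67 in WT replicates 1, 2 and 3. Without WT replicate 2, 7 outputs were higher, among them PIF4, PIF5 and CCL, and 3 lower (17.5% and 11.3% of all genes). The log2 differences of CCL and CAT3 then changed sign, to 0.99 and 0.24 without WT replicate 2, against -0.36 and -0.37 with it. Without WT replicate 1 or 3 limma called only CAT2 and COL1, both higher, so CO was not called. Of all genes, 3.92% were called higher and 0.922% lower without WT replicate 1. Without WT replicate 3 these shares were 1.83% and 0.353%.

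Likeness to 3 members was measured as the root-mean-square difference between log2 profiles over the 5 libraries, each centred on its own mean. The genes closest to TOC1 were APC10, AT1G53440 and AT2G46900, at 0.03, 0.04 and 0.04. Those closest to GI were AT5G11580, ERD5 and UGE1, at 0.04, 0.05 and 0.05. Those closest to ELF4 were YUC9, AT1G62333 and AT1G75050, at 0.19, 0.24 and 0.25, all with 1.35 and 0 normalized counts in hdl replicates 1 and 2. Between members, TOC1 and GI were 0.23 apart, TOC1 and LUX 0.38, TOC1 and ELF3 0.54, and TOC1 and ZTL 0.73. By closeness to TOC1 among the 20391 genes tested, GI ranked 1261, LUX 4529, ELF3 9383 and ZTL 13524. Many genes outside the list were thus closer to TOC1 than these members were.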

How the data were processed

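RNA was measured in sorted leaf epidermal cells, 2 hdl and 3 WT libraries. Per the submitters' processing notes the genome was TAIR10, and the tools included Trimmomatic 0.33, Bowtie2 2.5.0 and DESeq2, in roles not given in the sources used here. Gene values were deposited by the authors as a normalized signal, gene counts divided by DESeq2 size factors per the file name. In every library 100% of values were whole multiples of 1 step within 0.01, so reads were recovered by division (15418154 to 22838239 per library). A second table of raw counts held no clock gene and was not used. Every count of hdl replicate 1 in it is even, so 1 step, taken here as 1 read, may stand for more in that library.

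Genes that reached 10 normalized counts in 2 or more libraries were fitted on log2(value + 1) with limma 3.58.1 in R 4.3.3 (intensity trend, no covariate), with Benjamini-Hochberg adjustment over all 20391 genes. edgeR 4.0.16 and DESeq2 1.42.0 on recovered reads were alternatives. The fit was tested on simulated counts with the same dispersion (spread beyond counting error) for every gene and no library that stood apart. That test therefore does not cover libraries that stand apart, as WT replicate 2 does here. Intervals cover counting error only. Log2 differences of genes near 0 in a library depend on the pseudocount. Gene names, coordinates and exon lengths are from RefSeq TAIR10.1, which holds 24108 of the 24200 identifiers and all 10 members; the deposited files hold no coordinates.

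The members and lists were chosen with earlier results of these data known. The text names all members, up to 4 called genes per list by smallest p, and the 3 genes closest to TOC1, GI and ELF4; others are marked as chosen after their values were seen, or complete a count. The main fit did not pair libraries by replicate number, and the labels do not say whether same-numbered libraries were prepared together.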

Additional observations from a re-analysis of the deposited data

How the results depend on the processing

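Of 9 members and 27 other named genes, ASK1 changed sign with libraries scaled to equal totals (-0.21), and CAT3 (-0.69 to 0.24 with 1 library left out) and CCL (-1.03 to 0.99) did without WT replicate 2; the members did not change sign under the alternatives run. Among 148 values of 9 members, 110 kept their side of the threshold, 22 no longer passed and 16 newly passed. Among 449 values of the other named genes, 361 kept it, 61 no longer passed and 24 newly passed. The counts of called genes, higher and lower, also moved and are listed in a fixed order, which is no ranking. In the main fit they were 1674 and 917 for all genes, 1 and 3 for members, 6 and 0 for morning genes, 2 and 0 for partners and 3 and 1 for outputs. With DESeq2 they were 2619 and 2152 for all genes, 6 members lower, 1 morning gene lower, 1 partner lower, and 5 outputs higher and 2 lower. With libraries scaled to equal totals, 993 and 2554, 0 and 6, 3 and 1, and 0 and 3 for partners. Without the intensity trend, 679 and 467, 0 and 1 for members (ELF4, while ELF3, LUX and PRR5 no longer passed), 1 morning gene and 0 partners higher, and 0 outputs lower. At an adjusted p under 0.10, 2623 and 2035 for all genes, 7 members lower, 4 and 1 partners, and 5 and 2 outputs. Without genes that overlap the opposite strand, 1 member lower, 1 and 1 partners, and 1 and 0 outputs; LUX, ELF3, LKP2, CAT2, COL1, COL2 and CO are then not in the fit. A pseudocount of 5 gave 1 partner lower. The filter and TMM scaling moved no such count by more than 1.5 times.

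Leaving out 1 library each gave 0 to 3576 and 0 to 2307 for all genes, 0 to 1 and 0 to 5 for members, 0 to 10 and 0 to 1 for morning genes, 0 to 5 and 0 to 1 for partners, and 0 to 7 and 0 to 3 for outputs. The lone hdl library was then assumed to vary like the WT libraries. Without hdl replicate 1 limma called 0 genes, with 3998 at an unadjusted p under 0.05. With the replicate block limma also called 0 genes (4529 at an unadjusted p under 0.05), so 0 members, morning genes, partners or outputs. The deviations of same-numbered libraries from their group means correlated at 0.00477 and -0.0123. With 2 hdl libraries the hdl deviations mirror each other, so these values do not decide whether same-numbered libraries were prepared together. With the longest transcript as length, BOA averaged 299.96 normalized counts per kb in WT in place of 238. The other causes were not tested. ELF4 and PRR3 are limited by depth, with 1 and 3 recovered reads in hdl.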
